A study of Homo sapiens with 24 samples.

Results

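The 28 genes described here make, sense, move and export cholesterol. They were chosen by symbol, and all 28 were found among the 23946 genes of the deposited tables: 7 enzymes of the mevalonate branch, 11 enzymes from squalene to the last sterols, 5 genes that control the sterol-regulated transcription factors, 2 carriers of sterol inside the cell and 3 genes under the liver X receptors. The samples were LNCaP cells, an androgen-sensitive line from human prostate cancer, kept for 3 days before treatment in phenol red-free medium with charcoal-stripped serum, which holds little steroid hormone. In the ligand experiment the cells received vehicle, 10 nM dihydrotestosterone (DHT, the potent natural ligand of the androgen receptor) for 4 or 24 h, or 10 μM enzalutamide (MDV in the labels, a drug that blocks the androgen receptor) for 4 or 24 h, with 2 libraries a condition. The time of the vehicle treatment was not stated. In the siRNA experiment the cells were transfected with a pool of siRNAs against GATA2, a transcription factor of prostate cells (siGATA2), or a non-targeting pool (siControl, sicontrol in the labels), and 72 h later were given enzalutamide at 25 μM, or its vehicle, for another 24 h, with 3 libraries a condition. One cell line was used throughout, so the p-values below measure the spread between cultures of that line, and in bulk RNA fewer cells of a kind and less RNA per cell cannot be told apart.

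Cells build cholesterol from acetyl-CoA by way of mevalonate, farnesyl diphosphate, squalene and lanosterol. When membrane sterol is low, the escort protein SCAP carries the precursors of the SREBP transcription factors (genes SREBF1 and SREBF2) from the endoplasmic reticulum to the Golgi, where they are cut into active factors that switch on the enzymes of the pathway; the INSIG proteins hold SCAP back when sterol is plentiful. When sterol is in excess, oxysterols activate the liver X receptors (LXRs), which switch on the efflux pumps ABCA1 and ABCG1 and the ubiquitin ligase MYLIP, which marks lipoprotein receptors for degradation. Prostate cancer cells use cholesterol for membranes and as the precursor of steroids, and lipid synthesis in LNCaP cells is known to respond to androgen.

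The promoter windows of RefSeq (build GRCh38.p14) covered 24 of the 28 genes with 30 windows; ACAT2, FDFT1, SQLE and ABCG1 had none. The 250 bases before each start site were searched on both strands and set beside the same stretch of 16419 windows of genes tested in these libraries. The letters TCACNCCAC, a form of the sterol regulatory element that SREBPs bind, were in 1 member window, that of SREBF2 itself, against 0.834% of all windows. CCAAT, the box bound by the SREBP partner NF-Y, was in 19 member windows (63.3%) against 33% of all. GGGCGG, a GC box of SP1, was in 28 member windows (93.3%) against 61.3%. A direct repeat of AGGTCA with a spacer of 4 bases, the form LXRs bind, was found in 1 member window, that of ABCA1, against 1.69% of all windows, when up to 2 mismatches over the 12 repeat bases were allowed. The motifs can share bases, and a match of letters is a description of the window alone. The stretches below are printed because the results turn on these genes: the SREBP-2 gene with its sterol element, INSIG1 with the largest difference between DHT and enzalutamide, the sterol enzyme gene MSMO1 with repeated CCAAT boxes, and the LXR-type repeat of ABCA1. Each is written 5′ to 3′ on the strand of the gene, with the sterol element, the CCAAT box (ATTGG where it lies on the other strand) and the direct repeat in capitals and the GC boxes left in lower case; the first 3 lie outside the annotated exons of their gene, and the SREBF2 stretch lies within an exon of the antisense RNA SREBF2-AS1. The deposited files were aligned to hg19 and hold no coordinates, so the positions are those of the RefSeq windows.
SREBF2, chr22:41832855-41833078, plus strand: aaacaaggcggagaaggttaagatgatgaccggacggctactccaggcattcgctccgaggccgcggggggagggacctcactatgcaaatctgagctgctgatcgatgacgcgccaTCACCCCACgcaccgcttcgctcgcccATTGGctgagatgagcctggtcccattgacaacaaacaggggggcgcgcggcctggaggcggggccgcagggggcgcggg
INSIG1, chr7:155297628-155297775, plus strand: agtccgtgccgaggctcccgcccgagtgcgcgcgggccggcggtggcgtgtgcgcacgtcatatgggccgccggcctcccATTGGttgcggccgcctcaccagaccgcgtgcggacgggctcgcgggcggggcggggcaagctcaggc
MSMO1, chr4:165327419-165327622, plus strand: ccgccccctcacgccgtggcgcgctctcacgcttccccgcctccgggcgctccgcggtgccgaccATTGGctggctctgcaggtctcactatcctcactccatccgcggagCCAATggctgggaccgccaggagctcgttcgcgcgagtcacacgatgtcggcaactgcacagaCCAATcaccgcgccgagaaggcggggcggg
ABCA1, chr9:104928202-104928231, minus strand: caggcttTGACCGATAGTAACCTctgcgct

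All 28 genes passed the filter on low values in both experiments. Per length, SREBF1 was the most abundant of them in siControl cells given vehicle, at 135 ± 7.10 RPKM (read counts scaled by gene length and by the mapped reads of the library; SD, n = 3), above 98.5% of the genes tested. The sterol reductase gene TM7SF2 followed at 102 ± 5.36 RPKM. FDFT1, the squalene synthase, had 60.7 ± 1.64 RPKM and SREBF2 had 58.8 ± 2.73 RPKM; the libraries of this pair overlapped, so their order was not resolved. EBP, FDPS, DHCR7 and INSIG1 formed a run of overlapping neighbours from 46.4 down to 40.7 RPKM. The enzymes of the pathway spread widely, down to 7.71 ± 0.457 RPKM for mevalonate kinase (MVK) and 5.93 ± 0.0384 RPKM for HSD17B7. The least abundant were the sterol carrier STARD4, at 2.63 ± 0.0544 RPKM, and the efflux pump ABCA1, at 0.658 ± 0.0674 RPKM and still above 37.9% of genes; neither overlapped its neighbours in the order.

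The ligand libraries held 38894876 to 59985287 estimated counts each, and the lowest count of any member was 134, for ABCA1. The depth of the RPKM libraries is unknown, but the deepest was 1.31 times the shallowest by the size of their lowest steps. The classic androgen-induced gene KLK3, which encodes prostate-specific antigen, fell 2.33-fold under 24 h of enzalutamide and rose 8.25-fold under 24 h of DHT (edgeR adjusted p = 1.56e-09 and 4.98e-13). GATA2 had 83.8, 77.0 and 86.1 RPKM in siControl vehicle libraries and 54.3, 53.4 and 46.6 RPKM in siGATA2 vehicle libraries, 1.60-fold lower (limma adjusted p = 3.12e-06), so the knockdown at the RNA level was partial. It had 128, 132 and 128 RPKM in siControl enzalutamide libraries and 60.1, 64.7 and 61.5 RPKM in siGATA2 enzalutamide libraries. All 9 listed markers of luminal prostate epithelium exceeded 1 CPM (counts scaled to the library total) or RPKM in every library, and all 3 basal markers stayed below 1. Of the other markers, PTPRC, CD3E, PECAM1, CDH5 and DCN stayed near 0, whereas COL1A1 (13.9 to 28.8 CPM), VWF (8.55 to 20.7 CPM) and CD68 (1.19 to 2.75 CPM) were detected. The ligand columns carry marks of 3 sets whose meaning was not stated; both 4 h enzalutamide libraries were in the second set and both 24 h enzalutamide libraries in the third, so time and set cannot be told apart among enzalutamide libraries without the vehicle, whose replicate 1 was run in all 3 sets. Across these vehicle columns, the highest over the lowest level of a member had a median of 1.05 and was at most 1.18, for ABCG1. Whether they come from 1 culture was not stated.

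The question put to the first comparison was what blocking the androgen receptor for 24 h did to the pathway in the absence of added androgen. Enzalutamide lowered most of it: 21 of the 28 genes fell, 4 rose and 3 did not pass the test, where a gene passes at a Benjamini-Hochberg adjusted p below 0.05 over all 15555 genes tested. Of all genes tested, 17.0% fell and 16.4% rose. The median log2 fold change of the members was -0.32, against 0.01 for all genes. All 7 mevalonate enzymes fell, as did 9 of the 11 squalene and sterol enzymes, 3 of the 5 control genes and both carriers, whereas ABCG1, MYLIP, TM7SF2 and SC5D rose.

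INSIG1, the sterol-sensing anchor and itself an SREBP target, moved most. Its vehicle libraries had 97.0 and 122 CPM and its 24 h enzalutamide libraries 54.1 and 52.0 CPM, so the groups lay apart although the vehicle libraries differed from each other. The fall was 2.06-fold (log2 -1.04 ± 0.08 SE, edgeR adjusted p = 6.39e-07). EBP, the sterol isomerase, had 46.0 and 48.5 CPM in vehicle and 27.4 and 26.5 CPM under enzalutamide, a 1.75-fold fall (edgeR adjusted p = 5.55e-07). ACAT2, the thiolase that joins acetyl-CoA units at the head of the pathway, had 66.8 and 70.0 CPM in vehicle and 43.9 and 45.7 CPM under enzalutamide, a 1.53-fold fall (edgeR adjusted p = 1.48e-07). Both sets of libraries were tight, and neither gene overlapped between the groups. Among the other mevalonate enzymes the falls ran from 1.10-fold for phosphomevalonate kinase (PMVK) to 1.52-fold for MVK, with HMGCS1, the HMG-CoA synthase, at 1.29-fold, the decarboxylase MVD at 1.23-fold, the isomerase IDI1 at 1.47-fold and the farnesyl diphosphate synthase FDPS at 1.41-fold. Past farnesyl diphosphate, FDFT1 fell 1.42-fold, DHCR7, the reductase of the last step, 1.32-fold, the methylsterol oxidase MSMO1 1.31-fold, the squalene epoxidase SQLE 1.30-fold, the lanosterol synthase LSS 1.26-fold, HSD17B7 1.23-fold, the lanosterol demethylase CYP51A1 1.21-fold and the sterol dehydrogenase NSDHL 1.19-fold. HSD17B7 has a near-identical pseudogene whose reads the counting could have split, and its values are uncertain for that reason.

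The genes of the transcription factors fell too. SREBF1 had 352 and 398 CPM in vehicle and 296 and 291 CPM under enzalutamide (1.28-fold), and SREBF2 had 298 and 309 CPM in vehicle and 244 and 243 CPM under enzalutamide (1.24-fold, edgeR adjusted p = 2.17e-05). Neither SCAP nor INSIG2 passed the test; the 95% interval of the log2 fold change was -0.13 to 0.06 for SCAP and -0.15 to 0.11 for INSIG2. The carriers moved with the enzymes. STARD4, which shuttles sterol through the cytosol, had 35.7 and 40.6 CPM in vehicle and 25.9 and 25.5 CPM under enzalutamide, a 1.48-fold fall, and NPC1, which exports cholesterol from lysosomes, fell 1.13-fold from 33.1 and 31.7 to 29.1 and 28.1 CPM.

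The genes that rose were ABCG1 and MYLIP, both under the LXRs, and the sterol enzymes TM7SF2 and SC5D. ABCG1, which exports sterol to lipoproteins, had 19.6 and 21.6 CPM in vehicle and 30.7 and 31.2 CPM under enzalutamide, a 1.51-fold rise (edgeR adjusted p = 1.25e-05). MYLIP rose 1.13-fold, TM7SF2 1.17-fold from 183 and 191 to 219 and 217 CPM, and the desaturase gene SC5D 1.11-fold. ABCA1, the other LXR-driven pump, had 12.2 and 10.1 CPM in vehicle and 10.7 and 11.2 CPM under enzalutamide; it did not pass the test and its interval on the log2 scale was -0.23 to 0.16. An alternative added after the data were seen had the set mark as a term in the model. Here and below it also kept the vehicle columns apart, with the 3 of replicate 1 each counted as a sample. Its results therefore reflect both changes. In it 20 members passed (17 fell and 3 rose). Of all genes, 13.9% then fell and 11.2% rose. The calls of PMVK, MVD, NSDHL, HSD17B7 and MYLIP were lost, and INSIG1 had a log2 fold change of -0.86. Leaving out 1 library ended the call of 7 members in at least 1 case (HSD17B7, MVD, MYLIP, NPC1, NSDHL, PMVK and SC5D, adjusted p up to 0.237); each of the 8 vehicle, 24 h enzalutamide and DHT libraries did so for at least 1 of them, and the other 18 calls were kept in each case.

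DHT for 24 h moved the pathway the other way and further, measured against the same vehicle libraries. Here 21 members rose, 4 fell and 3 did not pass, where 26.9% of all genes rose and 23.2% fell. The members' median log2 fold change was 0.49, against 0.00 for all genes. All 7 mevalonate enzymes rose, as did 9 of the 11 later enzymes, 4 of the 5 control genes and NPC1, whereas ABCA1, ABCG1, INSIG2 and TM7SF2 fell and STARD4, HSD17B7 and MYLIP did not pass.

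INSIG1 reached 223 and 208 CPM under DHT, 1.97-fold above vehicle (log2 0.98 ± 0.08 SE, edgeR adjusted p = 3.60e-07). EBP reached 83.1 and 95.5 CPM, a 1.89-fold rise (edgeR adjusted p = 4.75e-08). Both genes thus had their highest libraries under DHT and their lowest under 24 h of enzalutamide. In the mevalonate branch HMGCS1 rose 1.67-fold, from 128 and 133 CPM to 228 and 209 CPM, MVK rose 1.67-fold, and ACAT2 and IDI1 rose 1.61-fold each, while PMVK rose least, 1.12-fold. FDFT1 had the tightest large rise among the later enzymes, from 197 and 210 CPM to 356 and 349 CPM (1.73-fold, edgeR adjusted p = 1.98e-09). LSS rose 1.70-fold, SQLE 1.61-fold, DHCR7 1.59-fold, MSMO1 1.52-fold, CYP51A1 1.45-fold and NSDHL 1.37-fold. SC5D, which puts a double bond into the sterol ring, rose 1.18-fold, and TM7SF2 fell 1.23-fold to 148 and 155 CPM.

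Among the control genes SREBF2 rose 1.33-fold, to 395 and 414 CPM, SCAP 1.39-fold, to 111 and 112 CPM, and SREBF1 1.15-fold. INSIG2, the INSIG isoform that is not an SREBP target, went against INSIG1: its vehicle libraries had 49.4 and 51.3 CPM and its DHT libraries 26.9 and 25.1 CPM, a 1.93-fold fall (edgeR adjusted p = 6.30e-08). The efflux pumps fell most of all. ABCA1 had 12.2 and 10.1 CPM in vehicle and 3.27 and 3.42 CPM under DHT, 3.36-fold lower (log2 -1.75 ± 0.11 SE, edgeR adjusted p = 2.86e-08). ABCG1 had 19.6 and 21.6 CPM in vehicle and 8.65 and 7.47 CPM under DHT, 2.52-fold lower (edgeR adjusted p = 1.30e-08). MYLIP, the third LXR-controlled gene, had 20.5 and 21.1 CPM under DHT against 20.1 and 19.9 CPM in vehicle, and the interval of its log2 fold change was -0.08 to 0.18. With the set mark as a term, 25 members again passed, 21 higher and 4 lower (24.5% and 21.9% of all genes). Leaving out vehicle replicate 1 or DHT 24 h replicate 2 ended the calls of PMVK or SREBF1 (adjusted p up to 0.0646), and the other 23 calls were kept without any 1 library. Of the markers of other cell types, the stromal sum, nearly all from COL1A1, was 14.8 to 16.8 CPM under DHT. In vehicle it was 25.9 to 26.4 CPM. The endothelial sum, from VWF, was 20.2 to 20.8 CPM under DHT against 15.8 to 16.6 CPM in vehicle. Under 24 h of enzalutamide that sum was 8.57 to 9.18 CPM. The immune sum, nearly all CD68, was 2.73 to 2.78 CPM under DHT against 1.49 to 1.5 CPM in vehicle. The part of these markers in the results at 24 h was not tested.

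**Figure D1:**
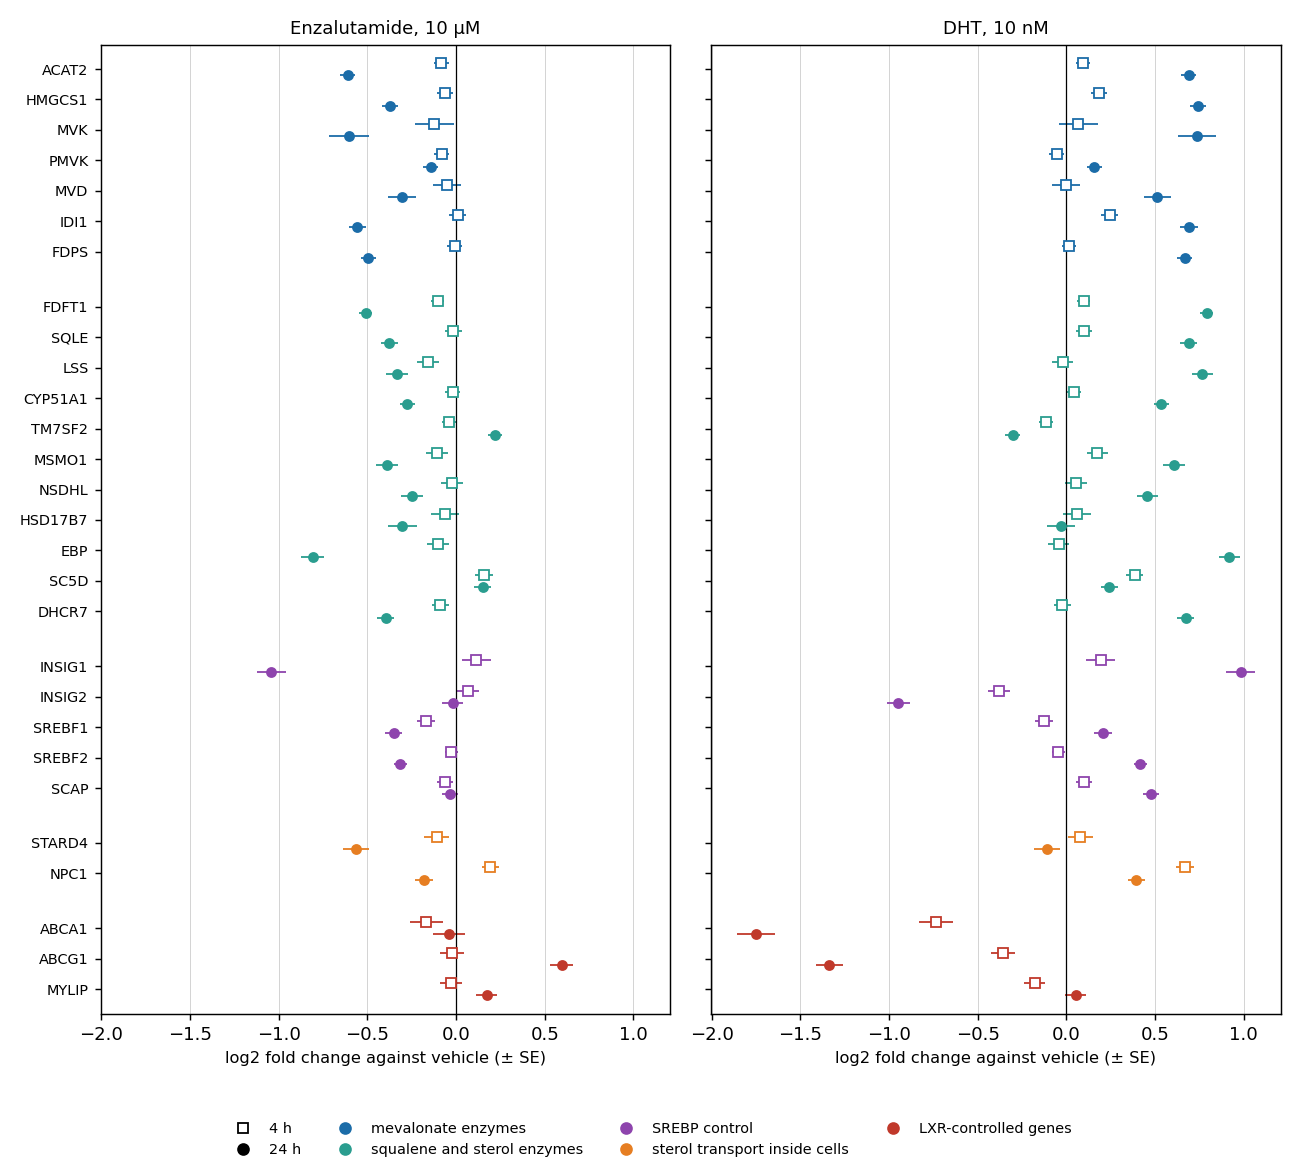
Log2 fold change of each of the 28 genes against vehicle at 4 h and 24 h of enzalutamide and DHT (open squares 4 h, filled circles 24 h, bars ± SE from edgeR, n = 2 libraries a condition), coloured by role. At 24 h the enzymes lie to the left of 0 under enzalutamide except TM7SF2 and SC5D and to the right under DHT except TM7SF2 and HSD17B7, with INSIG1 at -1.04 and 0.98, while ABCA1 and ABCG1 lie at -1.75 and -1.34 under DHT.

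DHT and enzalutamide were also compared directly at 24 h. Of the 28 genes, 22 were higher under DHT, 4 were lower and 2 did not pass; 31.3% of all genes were higher and 33.6% lower. INSIG1 differed 4.06-fold, between 223 and 208 CPM under DHT and 54.1 and 52.0 CPM under enzalutamide (edgeR adjusted p = 1.62e-10). EBP differed 3.31-fold, MVK 2.53-fold, ACAT2 and FDFT1 2.46-fold each, IDI1 2.37-fold and FDPS 2.24-fold. The same contrast was reversed for the pumps, with ABCG1 3.81-fold and ABCA1 3.27-fold lower under DHT, and for INSIG2 (1.90-fold lower) and TM7SF2 (1.44-fold lower). SC5D and MYLIP did not pass, with log2 intervals of -0.01 to 0.20 and -0.25 to 0.01. With the set mark as a term the count was again 26, and leaving out DHT 24 h replicate 2 ended the call of HSD17B7 alone (adjusted p = 0.0576).

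**Figure D2:**
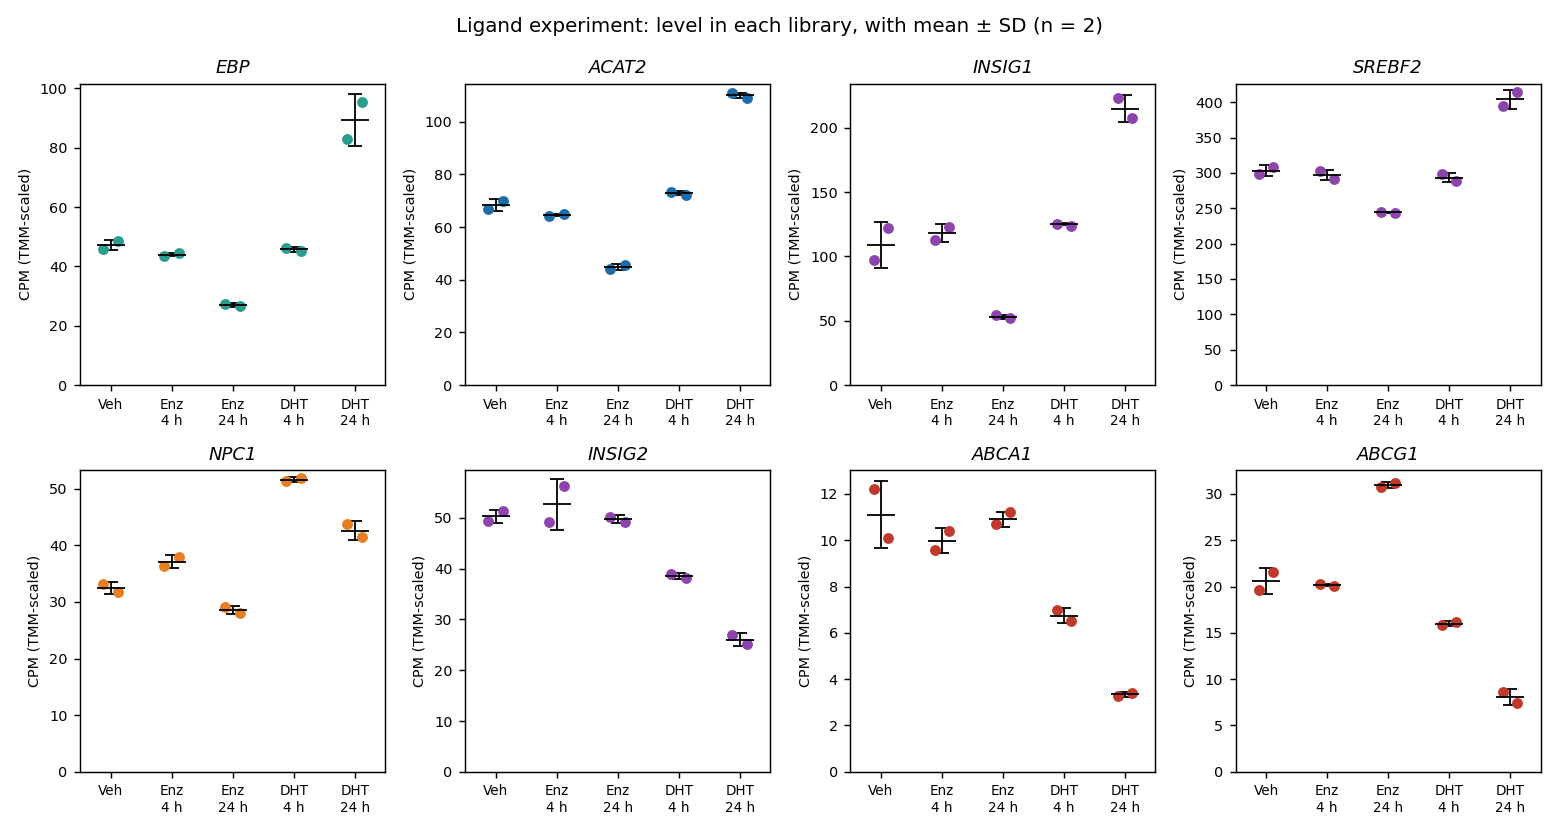
Level of 8 genes in each library of the ligand experiment (points; CPM scaled by TMM, linear axes) with the mean ± SD of the 2 libraries of each condition. EBP, ACAT2, INSIG1 and SREBF2 are lowest at 24 h of enzalutamide and highest at 24 h of DHT, NPC1 is highest at 4 h of DHT (51.3 and 51.9 CPM), and INSIG2, ABCA1 and ABCG1 step down from vehicle to 4 h and 24 h of DHT.

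At 4 h few members had moved. Under DHT 4 rose and 3 fell, where 4.66% of all genes rose and 2.11% fell. NPC1 rose most, from 33.1 and 31.7 CPM to 51.3 and 51.9 CPM, 1.59-fold (edgeR adjusted p = 9.07e-07), and SC5D rose 1.30-fold, from 117 and 118 to 155 and 152 CPM (edgeR adjusted p = 0.000168). IDI1 and HMGCS1 rose 1.18-fold and 1.14-fold. ABCA1 had 6.98 and 6.50 CPM, 1.66-fold below vehicle (edgeR adjusted p = 0.000206), INSIG2 had 39.0 and 38.2 CPM, 1.30-fold below, and ABCG1 had 15.8 and 16.2 CPM, 1.28-fold below. The libraries of each of these genes lay apart from vehicle. INSIG1 and EBP, the genes with the largest 24 h rises, had log2 fold changes of 0.19 and -0.04 and did not pass. Leaving out a vehicle or 4 h DHT library ended the call of HMGCS1, IDI1 or ABCG1 (adjusted p up to 0.168), with 4 members past the threshold in all without DHT 4 h replicate 1, and NPC1, SC5D, ABCA1 and INSIG2 kept theirs without any 1 library.

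Enzalutamide for 4 h gave 2 members higher and 1 lower, where 6.94% of all genes rose and 6.68% fell, a share of members no larger than that of all genes. NPC1 had 36.3 and 37.9 CPM (1.14-fold above vehicle, edgeR adjusted p = 0.0227), SC5D had 128 and 135 CPM (1.12-fold, edgeR adjusted p = 0.0491) and SREBF1 had 339 and 326 CPM (1.13-fold below, edgeR adjusted p = 0.0398). These calls were not stable. With the set mark as a term none of the 3 passed (adjusted p 0.162, 0.233 and 0.53), and without MDV 4 h replicate 2 none passed either (adjusted p 0.148, 0.246 and 0.145). Leaving out either vehicle library ended the calls of NPC1 and SC5D, leaving out vehicle replicate 2 that of SREBF1 (adjusted p = 0.302), and leaving out any 1 of the 24 h enzalutamide or 4 h DHT libraries those of SC5D and SREBF1. The other 25 members had log2 fold changes from -0.17 to 0.11.

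Between 4 and 24 h of DHT, 20 members rose, 7 fell and 1 did not pass (26.3% and 23.5% of all genes). The 2 times share no set, so this comparison leans on the set. EBP rose 1.95-fold, INSIG1 1.73-fold, LSS 1.73-fold and DHCR7 1.62-fold between the 2 times, and all 7 mevalonate enzymes rose, by 1.16-fold to 1.59-fold. ABCA1 fell a further 2.02-fold and ABCG1 1.97-fold (edgeR adjusted p = 7.53e-06 and 3.09e-07), and INSIG2 fell 1.48-fold. NPC1 went the other way from the enzymes, falling 1.21-fold from its 4 h level to 43.8 and 41.4 CPM (edgeR adjusted p = 0.000359), and SC5D fell 1.10-fold. HSD17B7 did not pass, at a log2 of -0.09. Leaving out 1 library ended the calls of MYLIP, SC5D or STARD4 (adjusted p up to 0.237; both 4 h DHT libraries, DHT 24 h replicate 2 and both 24 h enzalutamide libraries did so for at least 1 of them), and with the set mark as a term those of SC5D and STARD4 were lost (adjusted p 0.0536 and 0.43).

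Between 4 and 24 h of enzalutamide, 19 members fell, 3 rose and 6 did not pass (12.9% and 11.7% of all genes). INSIG1 went from 113 and 123 CPM to 54.1 and 52.0 CPM, a 2.23-fold fall (edgeR adjusted p = 2.97e-07), EBP fell 1.63-fold, IDI1 1.48-fold and ACAT2 1.44-fold, while ABCG1 rose 1.53-fold from 20.3 and 20.1 CPM. Each time lies in 1 set, so this comparison leans heavily on the set. With the set as a term 15 members passed, 13 lower and 2 higher, where 6.65% of all genes were lower and 3.79% higher. INSIG1 at log2 -1.11, EBP at -0.88 and ABCG1 at 0.84 were still past the threshold. Leaving out any 1 of the 4 h or 24 h enzalutamide or 4 h DHT libraries ended the call of at least 1 of HSD17B7, MVD, MVK, MYLIP, NSDHL and SREBF1 (adjusted p up to 0.288).

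The siRNA experiment asked whether GATA2 is needed for the response to enzalutamide, at 25 μM. It is deposited as RPKM and was tested with limma on log2(RPKM + 0.1), a scale on which fold changes of low genes are understated. In siControl cells enzalutamide lowered 14 members and raised 3, where 24.4% of all 20369 genes fell and 17.7% rose; 11 did not pass. The members' median log2 fold change was -0.13, against -0.02 for all genes. Of the 7 mevalonate enzymes 4 fell (ACAT2, MVK, IDI1, FDPS), of the later enzymes 7 fell (FDFT1, SQLE, CYP51A1, MSMO1, NSDHL, HSD17B7, EBP) and TM7SF2 and SC5D rose, and INSIG1, NPC1 and ABCA1 fell while ABCG1 rose.

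ACAT2 had 19.6, 20.4 and 19.4 RPKM in siControl vehicle libraries and 11.4, 11.5 and 11.4 RPKM under enzalutamide, a 1.73-fold fall (limma adjusted p = 1.08e-06). EBP had 45.9, 44.5 and 48.9 RPKM in vehicle and 31, 30.1 and 26.7 RPKM under enzalutamide, a 1.59-fold fall (limma adjusted p = 4.81e-06). NPC1 had 17.3, 15.7 and 15.8 RPKM in vehicle and 11.3, 11.4 and 11 RPKM under enzalutamide, a 1.45-fold fall (limma adjusted p = 2.38e-06). In all of these genes every enzalutamide library was below every vehicle library. FDPS fell 1.38-fold, IDI1 1.30-fold and MVK 1.22-fold. The falls of the later enzymes other than EBP were small, from 1.09-fold for MSMO1 to 1.19-fold for HSD17B7, and INSIG1 fell 1.16-fold. ABCA1, a rare transcript here, had 0.599, 0.732 and 0.643 RPKM in vehicle and 0.307, 0.325 and 0.300 RPKM under enzalutamide, a 1.84-fold fall on this scale (limma adjusted p = 2.18e-05). ABCG1 again went up, from 8.95, 8.19 and 8.72 RPKM to 12.3, 13 and 13 RPKM (1.47-fold, limma adjusted p = 1.05e-05). SREBF1, SREBF2 and SCAP did not pass, with log2 intervals of -0.19 to 0.03, -0.03 to 0.16 and -0.04 to 0.16.

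The calls of INSIG1 and MSMO1 were lost when any of several single libraries was left out (all 3 siControl vehicle libraries and siControl enzalutamide replicates 1 and 2; adjusted p up to 0.103), and the other 15 were kept. Centring each library on its median moved all log2 values of this comparison up by 0.06. The share of higher calls among all calls went from 42.1% to 55.8%. Then 5 members were higher and 12 lower, where 23.8% of all genes were higher and 18.9% lower. The luminal marker sum was 1640 to 1710 RPKM in siControl vehicle and 1070 to 1120 RPKM in siControl enzalutamide libraries. KLK3, itself an androgen-induced gene, carried most of that difference, with 765 to 816 RPKM in vehicle and 256 to 307 RPKM under enzalutamide, and the other 8 luminal markers summed to 874 to 896 and 807 to 817 RPKM; their part in these results was not tested.

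The 10 μM and 25 μM treatments come from experiments that share no library and were quantified and normalized apart, so their values stand side by side. Of the 21 members that fell at 10 μM, 13 also fell at 25 μM in siControl cells (61.9% of the 21 and 92.9% of the 14), and ABCA1 fell at 25 μM but not at 10 μM. ABCG1, SC5D and TM7SF2 rose in both (75.0% of the 4 that rose at 10 μM and 100% of the 3 at 25 μM). At 25 μM 24.4% of all genes fell and 17.7% rose, but the overlap over all genes was not computed. These shares therefore do not tell whether members overlap more than other genes. INSIG1 had a log2 fold change of -1.04 at 10 μM and -0.21 at 25 μM, and SREBF2 had -0.31 and 0.07, while ACAT2 had -0.61 and -0.79. Dose, transfection, depth and unit all differ between the experiments, and no difference between them was tested.

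In siGATA2 cells, 1 member passed under enzalutamide: NPC1 fell 1.19-fold, from 18, 17.0 and 18.3 RPKM to 14.9, 15.0 and 14.9 RPKM (limma adjusted p = 0.0255). Of all genes tested, 0.221% rose and 0.191% fell. That call was lost in 5 of the 6 cases in which a siGATA2 library was left out (adjusted p up to 0.113, for siGATA2 enzalutamide replicate 3; siGATA2 vehicle replicate 2 was the exception). The other 27 members had log2 fold changes from -0.21, for HSD17B7, to 0.13, for ABCG1. ACAT2 had 22.4, 23.1 and 26.2 RPKM in siGATA2 vehicle and 21.2, 20.3 and 21.7 RPKM in siGATA2 enzalutamide libraries, with a log2 interval of -0.29 to -0.06 that misses 0 although its adjusted p was 0.23. ABCA1 had 0.590, 0.596 and 0.689 RPKM in vehicle and 0.636, 0.667 and 0.691 RPKM under enzalutamide, so its libraries overlapped. EBP was already at 29.4, 29.4 and 28 RPKM in siGATA2 vehicle libraries, near its siControl enzalutamide level, and had 27.7, 27.4 and 26.8 RPKM with the drug.

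The difference between these responses was tested as the interaction of siRNA and drug in the same model. It passed for 15 members, with the change in siGATA2 cells higher than in siControl cells for 13 and lower for 2. Of all genes, 15.0% passed higher and 10.8% lower. Among genes with a mean of at least 1 RPKM, 24.6% passed higher and 18.9% lower. ABCA1 had the largest, a difference of 0.96 ± 0.12 (SE) on the log2 scale (limma adjusted p = 0.000376), followed by ACAT2 (0.61), EBP (0.58), IDI1 (0.36) and FDPS (0.34). INSIG1, NPC1, CYP51A1 and SQLE had differences of 0.26 to 0.31, and MVK, MSMO1, HMGCS1 and FDFT1 of 0.15 to 0.21. ABCG1 and TM7SF2, which rose with the drug in siControl cells, had differences of -0.43 and -0.32. The calls of FDFT1, HMGCS1, INSIG1, MSMO1 and MVK were each lost without 1 library, for 11 of the 12 libraries in at least 1 of these genes (adjusted p up to 0.103), and the other 10 were kept. With libraries centred on their medians, 8 members were higher and 2 lower (11.7% and 14.8% of all genes). The share of higher calls among all calls went from 58.0% to 44.3%.

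**Figure D3:**
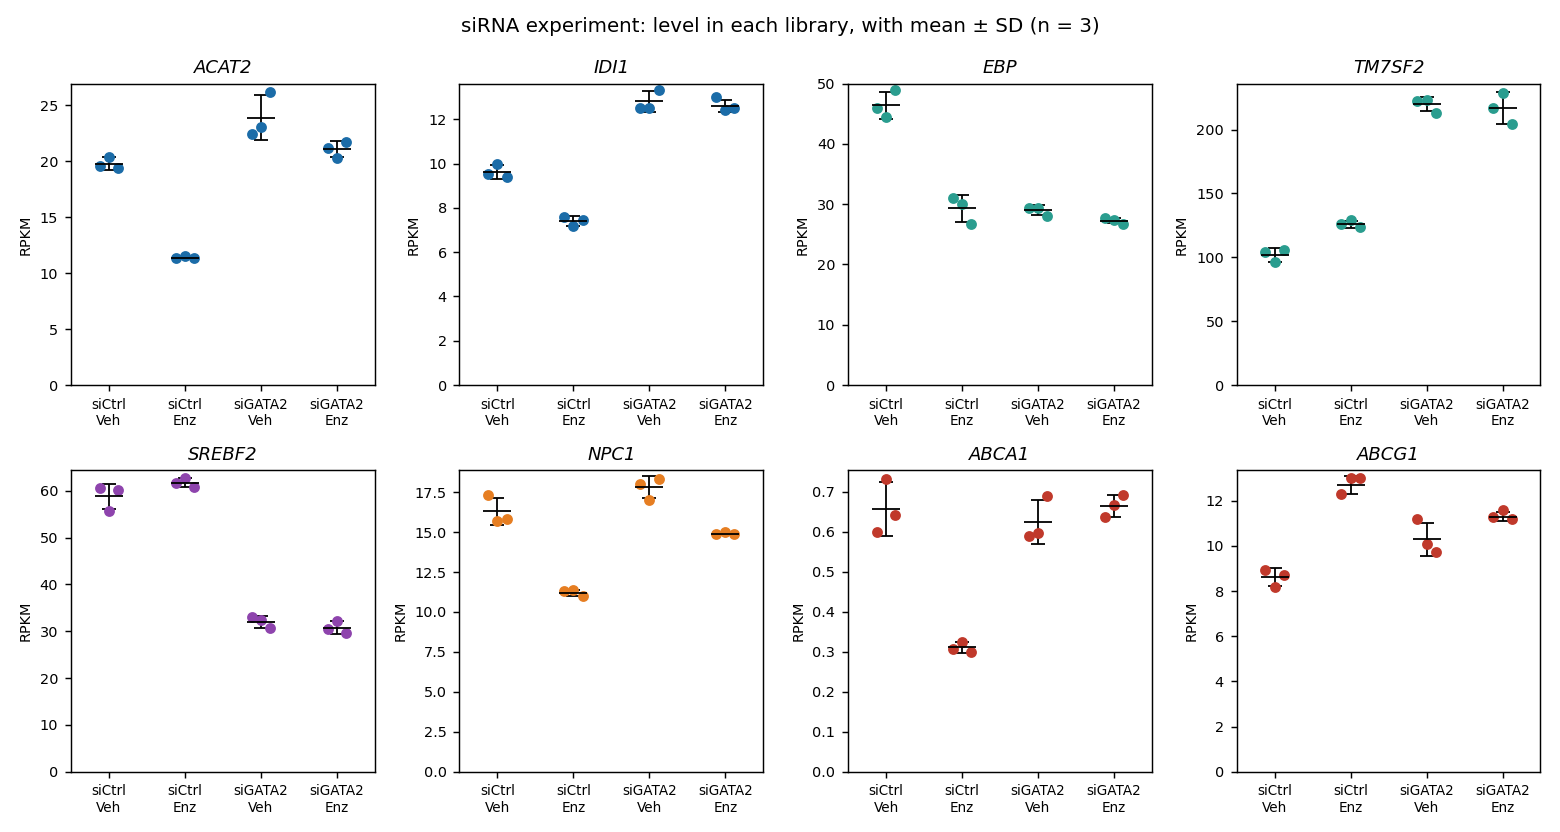
Level of 8 genes in each library of the siRNA experiment (points; RPKM, linear axes) with the mean ± SD of the 3 libraries of each condition. ACAT2, IDI1, EBP, NPC1 and ABCA1 drop from vehicle to enzalutamide in siControl cells, from 19.8 to 11.4 RPKM for ACAT2, whereas in siGATA2 cells only NPC1 passed the test, at 17.8 and 14.9 RPKM; SREBF2 and TM7SF2 differ mainly between the siRNAs.

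GATA2 knockdown by itself moved members in both directions, at a share (64.3%) near that of all genes (55.6%). Among genes with a mean of at least 1 RPKM, 34.7% were higher and 41.3% lower. In vehicle, 11 were higher and 7 lower in siGATA2 than in siControl cells, where 24.2% of all genes were higher and 31.4% lower. SREBF2, the gene of the main activator of the pathway, had 60.7, 55.7 and 60.1 RPKM in siControl and 33, 32.4 and 30.7 RPKM in siGATA2 libraries, 1.83-fold lower (limma adjusted p = 3.61e-08). TM7SF2 had 104, 96.2 and 106 RPKM in siControl and 222, 223 and 213 RPKM in siGATA2 libraries, 2.15-fold higher (limma adjusted p = 1.59e-08). These groups lay far apart in every library. HSD17B7 was 1.74-fold higher, from 5.96, 5.94 and 5.88 RPKM to 10.1, 10.1 and 11 RPKM. FDFT1 was 1.40-fold, STARD4 1.33-fold, IDI1 1.32-fold, SCAP 1.27-fold and INSIG1 1.23-fold higher, and HMGCS1, ACAT2, ABCG1 and NPC1 were 1.09-fold to 1.20-fold higher. EBP was 1.60-fold lower (limma adjusted p = 1.32e-06), DHCR7 1.32-fold lower and PMVK 1.22-fold lower, and SQLE, MVK and SC5D were 1.06-fold to 1.11-fold lower. The enzymes of the pathway did not move in 1 direction.

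Under enzalutamide the difference between siRNAs was 17 members higher and 5 lower in siGATA2 cells (26.3% and 28.1% of all genes). Among genes with a mean of at least 1 RPKM, 37.7% were higher and 37.7% lower. ABCA1 was 1.86-fold, ACAT2 1.83-fold, HSD17B7 1.78-fold, TM7SF2 1.71-fold and IDI1 1.70-fold higher, and SREBF2 was 2.00-fold lower, at 30.5, 32.3 and 29.6 RPKM against 61.7, 62.7 and 60.8 RPKM. Leaving out 1 library ended calls of MVK, NPC1 or SC5D in vehicle (adjusted p up to 0.123, for 8 of the 12 libraries: the 6 vehicle libraries and siGATA2 enzalutamide replicates 1 and 2) and of ABCG1 under enzalutamide (adjusted p up to 0.0532; siControl enzalutamide replicates 2 and 3 and siGATA2 enzalutamide replicate 3). Median centring moved the log2 values by 0.13 in vehicle and 0.08 under enzalutamide. The share of higher calls among all calls then went from 43.5% to 62.2% and from 48.4% to 59.1%. In vehicle the members went from 11 higher and 7 lower to 16 and 4 (38.0% and 23.0% of all genes after centring). Under enzalutamide they went from 17 and 5 to 20 and 3 (33.5% and 23.2% of all genes). SC5D turned from a log2 of -0.09 to 0.04 in vehicle, where it no longer passed. The immune marker sum, nearly all CD68, was 10.5 to 12.2 RPKM in siGATA2 vehicle and 3.54 to 3.84 RPKM in siControl vehicle libraries, with PTPRC and CD3E near 0, and the luminal sum was 1020 to 1040 against 1640 to 1710 RPKM. KLK3 had 21.7 to 26.3 RPKM in siGATA2 and 765 to 816 RPKM in siControl vehicle libraries, while the sum of the other 8 luminal markers was higher in siGATA2 libraries, at 997 to 1020 against 874 to 896 RPKM; the part of these markers in the results was not tested.

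**Figure D4:**
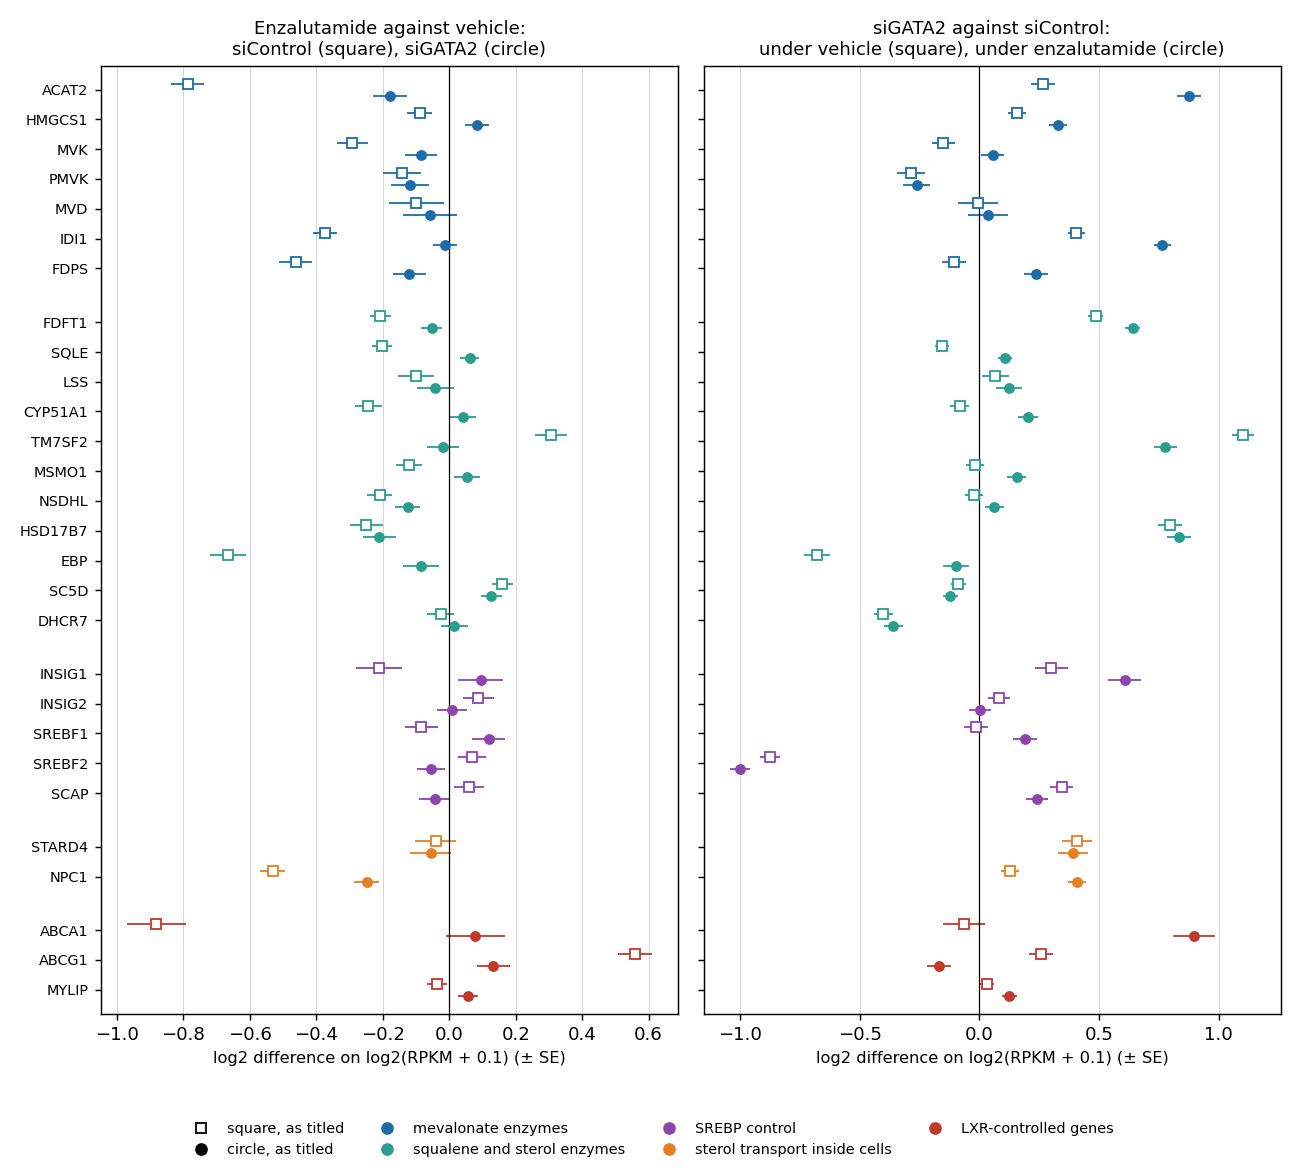
Log2 fold change of each of the 28 genes under 25 μM enzalutamide in siControl and in siGATA2 cells, and for siGATA2 against siControl under vehicle and under enzalutamide (squares and circles as the panel titles say, bars ± SE from limma, n = 3 libraries a condition), coloured by role. In siControl cells ABCA1, ACAT2 and EBP lie at -0.88, -0.79 and -0.67, whereas in siGATA2 cells all members lie between -0.25 and 0.13.

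A list of 34 further genes of sterol sensing, fatty acid synthesis and lipid transport gives the surroundings; 30 were tested in the ligand and 32 in the siRNA experiment. At 24 h, 4 of the 30 rose and 11 fell under enzalutamide (16.4% and 17.0% of all genes), and 15 rose and 7 fell under DHT (26.9% and 23.2% of all genes). At 4 h, 3 rose and 5 fell under enzalutamide (6.94% and 6.68% of all genes), and 3 rose and 1 fell under DHT (4.66% and 2.11% of all genes). FASN, the fatty acid synthase, rose most under 24 h of DHT (log2 1.06, edgeR adjusted p = 5.50e-10), GRAMD1C, of a family of sterol transfer proteins, fell (log2 -1.0), and the fatty acid desaturase FADS2 fell under 24 h of enzalutamide (log2 -0.87, edgeR adjusted p = 1.87e-09). In siControl cells 9 of 32 rose and 14 fell with 25 μM enzalutamide, where 17.7% of all genes rose and 24.4% fell, with FADS2 at log2 -0.76, TMEM97, whose product binds NPC1, at -0.55 and GRAMD1A at 0.52 (limma adjusted p = 1.76e-07, 2.38e-06 and 2.02e-05), and in siGATA2 cells none of the 32 passed limma's test after adjustment, with 7 at an unadjusted p below 0.05. The interaction passed for 19 of the 32, higher for 13 and lower for 6 (15.0% and 10.8% of all genes). Between siRNAs, 12 were higher and 13 lower in siGATA2 cells in vehicle (24.2% and 31.4% of all genes), and 15 higher and 12 lower under enzalutamide (26.3% and 28.1% of all genes).

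Some members share bases with other annotated genes, and whether the counting used the strand was not stated. By GENCODE 29 (GRCh38), ACAT2 shares 26.5% of its exon bases with SOD2 and 33.9% with SOD2-OT1 on the other strand, FDPS 18.6% with RUSC1-AS1, IDI1 14.8% with IDI2-AS1 and HMGCS1 15.0% with an antisense RNA. CYP51A1 shares 79.4% of its exon bases with a readthrough gene on the same strand. Reads in these bases cannot be told apart between the genes, and the values of these members are uncertain to that extent.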

How the data were processed

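RNA-seq of LNCaP cells was analysed from the deposited tables. For the ligand experiment the authors deposited estimated counts per gene, with alignment by TopHat2 2.0 to hg19 and quantification in Partek per the labels. For the siRNA experiment the authors deposited RPKM values per gene. Apart from the vehicle columns described next, replicates were not pooled. Whether counting used the strand was not given in the sources used here. GEO lists 4 vehicle samples, but 3 of the 4 vehicle columns carry the name of replicate 1, so they were summed and vehicle counted as 2 libraries. The mean chi-square per gene, a measure of difference in counts, was 1.53 to 1.56 between these 3 columns, above sampling noise. It was 3.56 to 3.74 between them and replicate 2. Between the replicates of the other ligand conditions, which were deeper, it was 2.03 to 9.82. Whether the 3 columns come from 1 culture was not stated. Doses are those of the study's methods.

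Estimated counts were rounded and tested with edgeR 4.0.16 (quasi-likelihood test, TMM factors, filterByExpr; 10 libraries of 5 conditions in 1 model, 15555 genes). RPKM values were tested with limma 3.58.1 (moderated test with trend) on log2(RPKM + 0.1) for genes above 0 in at least 3 libraries (12 libraries of 4 conditions, 20369 genes), since RPKM are not counts. A gene passed at a Benjamini-Hochberg adjusted p below 0.05 over all genes of its experiment. Levels in the ligand experiment are TMM-scaled CPM. Estimated counts per library limit the precision of rare genes most, here ABCA1. The tests were checked on simulated data. R 4.3.3 and Python 3.11.15 were used, and DESeq2 1.42.0 as an alternative; the others were other scaling and filters, other treatments of the vehicle columns, a replicate block, the compared conditions alone, median centring, a fold threshold and leaving out each library.

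All 28 members are named in the text, by role, with those past the threshold first; of 34 companion genes at most 3 an experiment are named, those with the largest change among those past the threshold. The members and lists were chosen with earlier results of these data known. Same-numbered replicates share a number in the labels. Over genes with a mean of at least 1, the deviations of same-numbered libraries correlated at -0.152 to 0.161 in the ligand and -0.342 to 0.28 in the siRNA experiment. Among the siRNA conditions, which have 3 pairs each, every pair exceeded 0.1 only between siControl and siGATA2 enzalutamide libraries (0.113, 0.241 and 0.148); the ligand conditions have 2 pairs each, too few to judge by the same rule, although 3 of their comparisons exceeded 0.1.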

Additional observations from a re-analysis of the deposited data

Results flagged for a closer look

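The effect of 25 μM enzalutamide differed between siControl and siGATA2 cells, by the interaction term of the limma model, for 15 of the 28 genes. Of all genes, 15.0% passed higher and 10.8% lower. The difference on the log2 scale, siGATA2 minus siControl, was 0.96 for ABCA1, 0.61 for ACAT2, 0.581 for EBP, 0.359 for IDI1, 0.341 for FDPS, 0.307 for INSIG1, 0.285 for CYP51A1, 0.282 for NPC1, 0.263 for SQLE, 0.207 for MVK, 0.174 for MSMO1, 0.172 for HMGCS1 and 0.154 for FDFT1. It was negative for ABCG1, at -0.426, and for TM7SF2, at -0.325. The calls of INSIG1, MVK, MSMO1, HMGCS1 and FDFT1 were lost after median centring, and each was lost without some single libraries.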

How the results depend on the processing

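Over 6211 alternative values for 336 member values, 5943 kept their direction and side of the threshold, 211 lost the call, 56 gained one and 1 reversed: SC5D between siRNAs in vehicle, at log2 0.0406 after median centring. DESeq2, other scaling factors, the filters on low values and the handling of the vehicle columns left each count of members within 1.5 times the main one; the filter on mean RPKM dropped ABCA1. An alternative close to the study's own rule asked for a 2-fold change and a raw p under 0.05. At 4 h it left 0 for enzalutamide (0.399% of all genes rose and 0.354% fell) and 0 for DHT (0.906% and 0.289%). At 24 h it left 1 for enzalutamide (0.894% and 1.99%) and 2 for DHT (2.08% and 3.78%). Between the times it left 1 for enzalutamide (0.604% and 1.7%) and 1 for DHT (1.61% and 2.93%). For DHT against enzalutamide at 24 h it left 13 (5.55% and 6.27%). For siGATA2 in vehicle it left 1 (1.87% and 3.78%), and in each other siRNA comparison 0. Changes were mostly under 2-fold. Fitted on the compared conditions alone, 0 members passed for enzalutamide at 4 h and 0 for enzalutamide in siGATA2 cells. With the set mark as a term and the vehicle columns kept apart, chosen after seeing the data, 0 passed for enzalutamide at 4 h. Of all genes, 3.36% then rose and 4.49% fell.

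With the replicate number as a block, 22 members passed between siRNAs under enzalutamide, and no call changed there. Of all genes, 25.9% were then higher and 27.6% lower. The deviations of same-numbered libraries correlated at 0.113, 0.241 and 0.148 in that comparison, but the labels give no pairing beyond the number. With that block 2 members passed for enzalutamide at 4 h (5.96% of all genes rose and 5.48% fell) and 25 at 24 h (15.2% and 15.8%). For DHT 7 passed at 4 h (4.17% and 1.72%) and 25 at 24 h (26.1% and 22.4%). Between the times 21 passed for enzalutamide (10.6% and 11.8%) and 27 for DHT (25.5% and 22.4%). For DHT against enzalutamide 26 passed (30.7% and 32.8%). Enzalutamide gave 17 in siControl cells (16.9% and 23.4%) and 0 in siGATA2 cells (0.0687% and 0.0736%). For siGATA2 in vehicle 18 passed (23.7% and 30.8%) and for the interaction 11 (13.7% and 9.75%). With each library left out in turn, the counts ran from 0 to 4 (enzalutamide 4 h), 19 to 25 (24 h), 4 to 8 (DHT 4 h), 24 to 25 (24 h), 16 to 23 (enzalutamide 24 h against 4 h), 24 to 27 (DHT 24 h against 4 h), 26 throughout (DHT against enzalutamide), 15 to 18 (enzalutamide in siControl), 0 to 1 (in siGATA2), 16 to 19 (siGATA2 in vehicle), 21 to 23 (siGATA2 under enzalutamide) and 10 to 16 (the interaction). The causes of these shifts were not tested.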
